A study of Mus musculus with 4 samples.

Results

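The T cell quiescence and homing genes are 8 genes that resting T cells share: Lef1, Tcf7, Il7r, Klf2, S1pr1, Bach2, Satb1 and Foxp1. They were chosen by symbol from the 32290 features of the tables, and their UMIs (unique molecular identifiers, each standing for a captured RNA molecule) were counted in T cells of mouse adipose tissue. A T cell was a cell with at least 2 UMIs of Cd3e, Cd3d and Cd3g together, which gave 1868 T cells among 4113 kept cells. Of these, 510 had a UMI of Cd4 only and are called CD4, 746 had a UMI of Cd8a or Cd8b1 only and are called CD8, 584 had neither coreceptor and 28 had both.

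Single-cell RNA sequencing compared WT and KO mice in subcutaneous (SC) and visceral intraperitoneal (IP) fat. Mice of both genotypes carried Tie2e-cre, a recombinase under regulatory sequence of the endothelial gene Tie2, and mTmG, a reporter that turns from tdTomato to GFP where the recombinase has acted. The WT were TERT+/+ and the KO TERTfl/fl, so the floxed gene for telomerase reverse transcriptase is the only listed difference between them. All groups were male, 7 months old and given a high-fat diet for 5 months. Each of the 4 groups was 1 library, the number of mice in a library is not stated, and the labels speak of both cells and nuclei. No difference could therefore be set against a spread between mice, and no p-value is given. The 95% intervals are exact and cover counting error only.

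In naive and resting T cells these genes keep the cell out of division, alive and recirculating through blood and lymph. After activation, and in T cells that settle in tissue, several of them are switched off. Fat holds few naive T cells away from its lymph nodes, and a subcutaneous pad often contains a node.

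The kept cells numbered 518 to 1955 per library and the T cells 459 in SC of WT, 1163 in SC of KO, 125 in IP of WT and 121 in IP of KO. Median depth of the T cells was 7879 to 9170 UMIs. All 7 T cell markers had UMIs in every library, and a T cell receptor constant gene had a UMI in at least 98.4% of the T cells of each. Tert itself had 2 to 9 UMIs per library, of which 0 to 2 lay in endothelial-marker cells, and this is too few to check the genotype labels. The libraries labelled KO SC and WT IP shared 92 cell barcodes, and no other pair shared any. The shared barcodes held a median of 35536 UMIs in WT IP and 605 in KO SC. Among them was the largest T cell of WT IP, without a coreceptor UMI, which alone held 14.4% of the T cell UMIs of that library. Values without that cell are given beside the levels, ratios and list counts of WT IP whose direction or call it changed. The largest T cell of KO IP, a CD8 cell, held 9.60% of its library's T cell UMIs, against 2.04% or less in SC. KO IP values without that cell alone are not given.

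Both TCF and LEF factors, Lef1 and Tcf7, bind DNA through an HMG box and keep T cells in a naive or stem-like state. Lef1 (ENSMUSG00000027985) lies on GRCm38 chromosome 3 from 131110471 to 131224356 on the plus strand. Tcf7 (ENSMUSG00000000782) lies on chromosome 11 from 52252371 to 52283014 on the minus strand. Il7r (ENSMUSG00000003882, chromosome 15, 9505788 to 9530176, minus strand) encodes the receptor chain through which IL-7 keeps T cells alive. Klf2 (ENSMUSG00000055148, chromosome 8, 72319033 to 72321656, plus strand) encodes a zinc finger factor of quiescent T cells that activates S1pr1. S1pr1 (ENSMUSG00000045092, chromosome 3, 115710433 to 115715072, minus strand) encodes the sphingosine 1-phosphate receptor that lets lymphocytes leave lymphoid tissue. Bach2 (ENSMUSG00000040270, chromosome 4, 32238804 to 32586108, plus strand) encodes a repressor of effector genes. Satb1 (ENSMUSG00000023927, chromosome 17, 51736187 to 51833290, minus strand) encodes an organiser of chromatin loops. Foxp1 (ENSMUSG00000030067, chromosome 6, 98925338 to 99522721, minus strand) encodes a forkhead repressor needed for naive T cell quiescence. All 8 are protein coding in GENCODE M21.

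The 250 bases before an annotated start are shown for the 2 members with the lowest IP level relative to SC, Lef1 and Klf2, and for Il7r, which differed between KO and WT in IP. RefSeq held promoters (GRCm38.p6) for 7 of the 8 members, and S1pr1 was not among them. Each sequence reads 5′ to 3′ on the strand of its gene. Capitals mark the letters CCACCC, the core that KLF factors bind, on either strand. The windows are chr3:131110047-131110296 for Lef1 (plus strand), chr8:72318812-72319061 for Klf2 (plus strand) and chr15:9529877-9530126 for Il7r (minus strand).
Lef1: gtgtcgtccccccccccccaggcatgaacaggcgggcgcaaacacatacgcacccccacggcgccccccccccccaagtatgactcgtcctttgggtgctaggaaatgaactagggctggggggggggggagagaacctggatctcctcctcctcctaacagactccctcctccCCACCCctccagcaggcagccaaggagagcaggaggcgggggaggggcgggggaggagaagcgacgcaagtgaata
Klf2: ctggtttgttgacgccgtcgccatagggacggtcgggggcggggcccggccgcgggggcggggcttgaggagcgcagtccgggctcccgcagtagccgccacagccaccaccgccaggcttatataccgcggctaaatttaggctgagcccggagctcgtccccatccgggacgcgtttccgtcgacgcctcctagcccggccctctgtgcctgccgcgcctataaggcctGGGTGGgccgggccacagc
Il7r: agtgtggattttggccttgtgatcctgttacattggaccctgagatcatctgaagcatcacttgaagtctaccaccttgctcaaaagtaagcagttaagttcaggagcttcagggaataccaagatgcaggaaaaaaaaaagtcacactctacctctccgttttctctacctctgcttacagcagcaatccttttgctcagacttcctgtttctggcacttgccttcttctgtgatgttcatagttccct
The CCACCC letters stood in 10 of the 17 RefSeq start windows of the members, which belong to 5 of the 7 genes and partly overlap each other. They stood in 28.1% of all 32851 promoter windows of the same length. The FOXO letters GTAAACA, present in 3.17% of all windows, were in 0 of the 17. The TCF and LEF letters CTTTGA were in 3 of them, against 13.8% of all windows, and the ETS letters CCGGAAG in 2, against 6.91%. Both strands were searched and no searched motif contains another. A match is a description of these letters, and nothing about binding follows from it.

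Levels are UMIs of a gene divided by all UMIs of the cells summed and scaled to 1000000 (CPM). They were not divided by gene length, so levels are compared between libraries and cell classes, never between genes. Lef1 stood at 954 CPM (95% interval 926 to 982) in SC of WT, 960 (941 to 980) in SC of KO, 279 (250 to 310) in IP of WT and 209 (183 to 238) in IP of KO. Tcf7 stood at 295 CPM (280 to 311), 236 (226 to 246), 167 (145 to 192) and 175 (152 to 202) in the same order. Both genes were lower in each IP library than in each SC library, and for Lef1 the gap was wider. Within a depot the intervals of Lef1 overlapped in SC, and those of Tcf7 overlapped in IP.

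Il7r did not follow the depots. It stood at 453 CPM (434 to 472) in SC of WT, 546 (531 to 561) in SC of KO, 413 (378 to 450) in IP of WT and 971 (914 to 1030) in IP of KO. KO IP was therefore the highest library and WT IP the lowest, although the interval of WT IP overlapped that of WT SC. Without the large cell, Il7r in WT IP was 468 CPM (428 to 511) and WT IP was no longer the lowest.

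Klf2 and its target S1pr1 were both higher in SC. Klf2 stood at 741 CPM (717 to 766) in SC of WT, 549 (534 to 564) in SC of KO, 177 (154 to 202) in IP of WT and 143 (122 to 167) in IP of KO. S1pr1 stood at 230 CPM (216 to 244), 194 (186 to 203), 89.7 (73.8 to 108) and 93.0 (76.0 to 113) in the same order. For both genes WT SC was above KO SC beyond counting error, whereas the IP intervals overlapped. With the large cell left out, Klf2 in WT IP was 206 CPM (179 to 235), and that interval lay above the one of KO IP.

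The 3 remaining factors were also lower in IP, with smaller gaps for Bach2 and Foxp1. Bach2 stood at 969 CPM in SC of WT, 1106 in SC of KO, 687 in IP of WT and 641 in IP of KO. Satb1 stood at 1344, 1616, 515 and 486 CPM, and Foxp1 at 934, 920, 565 and 488 CPM, in the same order. Bach2 and Satb1 were higher in KO SC than in WT SC beyond counting error. Without the large cell the levels in WT IP were 320 CPM for Lef1, 193 for Tcf7, 105 for S1pr1, 787 for Bach2, 542 for Satb1 and 653 for Foxp1.

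**Figure D1:**
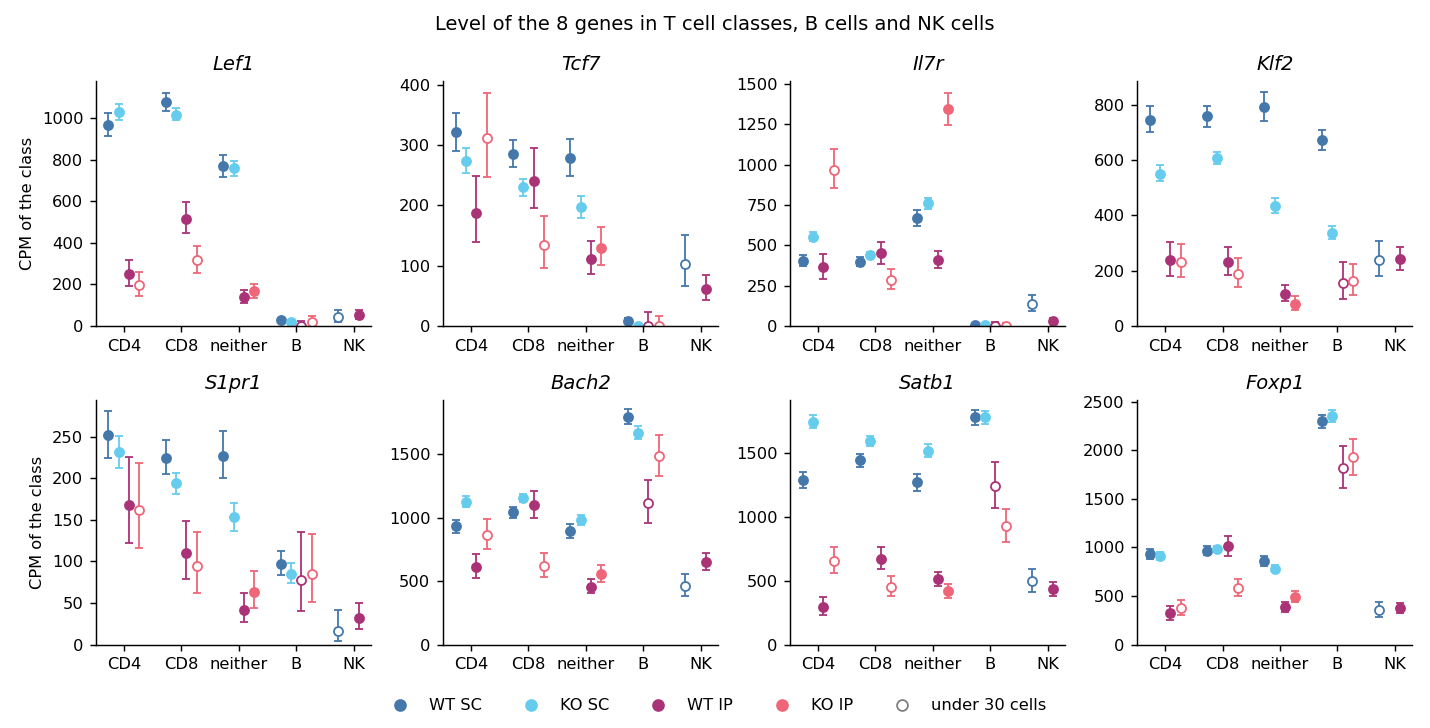
Level of each of the 8 genes (CPM of the class, linear axis from 0) in CD4, CD8 and coreceptor-negative T cells (neither), B cells and NK cells of the 4 libraries; each point is 1 library, open points are classes under 30 cells, and bars are exact 95% Poisson intervals. Lef1, Tcf7 and Il7r lie near 0 in B cells, whereas Bach2, Satb1 and Foxp1 reach 1796, 1776 and 2298 CPM in B cells of WT SC.

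Depots were compared within each genotype, which asks how far T cells of visceral fat carry the resting programme of those in subcutaneous fat. In WT, 6 of the 8 genes were lower in IP by more than 1.5-fold, against 11.1% of the 10199 genes compared. The ratios, IP over SC on the log2 scale of CPM after adding 0.5 UMI, were -2.06 for Klf2 (-2.27 to -1.87), -1.77 for Lef1 (-1.94 to -1.62), -1.38 for Satb1 and -1.35 for S1pr1. Those for Tcf7 and Foxp1 were -0.82 and -0.73, and Bach2 at -0.50 and Il7r at -0.13 (-0.27 to 0.01) stayed inside 1.5-fold. The median of the 8 was -1.08, and that of all compared genes 0.11. Without the large cell the median was -0.87 and 5 genes were lower past 1.5-fold, against 13.9% of the 10103 genes then compared. Lef1 was at -1.57, Klf2 at -1.84 and Foxp1 at -0.51.

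In KO, 6 of the 8 genes were likewise lower in IP by more than 1.5-fold, against 11.4% of the 11014 genes compared. Lef1 was at -2.20 (-2.39 to -2.01), Klf2 at -1.94 (-2.18 to -1.71), Satb1 at -1.73, S1pr1 at -1.06, Foxp1 at -0.91 and Bach2 at -0.79. Tcf7 was lower by less, at -0.42 (-0.65 to -0.22). Il7r was the exception, at 0.83 (0.73 to 0.93) in favour of IP. The median of the 8 was -0.99. The median of all genes was 0.30 in this comparison, so relative to it the members were lower still and Il7r higher by less.

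The libraries also differed in what else their T cells held, and only the NK markers followed the depots. NK markers summed to 60.2 and 40.2 CPM in the T cells of WT SC and KO SC, and to 272 and 142 CPM in those of WT IP and KO IP. Stromal markers summed to 99.5, 161, 957 and 35.8 CPM in WT SC, KO SC, WT IP and KO IP, while B cell markers stayed at 7.65 CPM or less and macrophage markers at 2.68 or less. The stromal sum was thus highest in WT IP and lowest in KO IP. Haemoglobin summed to 2722, 718, 4615 and 118 CPM in the same order, higher in WT than in KO in each depot. The part of these markers in the depot ratios, and in the ratios of KO over WT given below, was not tested. Leaving out T cells with at least 2 UMIs of B cell, stromal or macrophage markers gave a median of -0.79 for WT. Lef1 was then at -1.49 in WT and -2.14 in KO. That filter left out no cell for NK markers or haemoglobin.

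**Figure D2:**
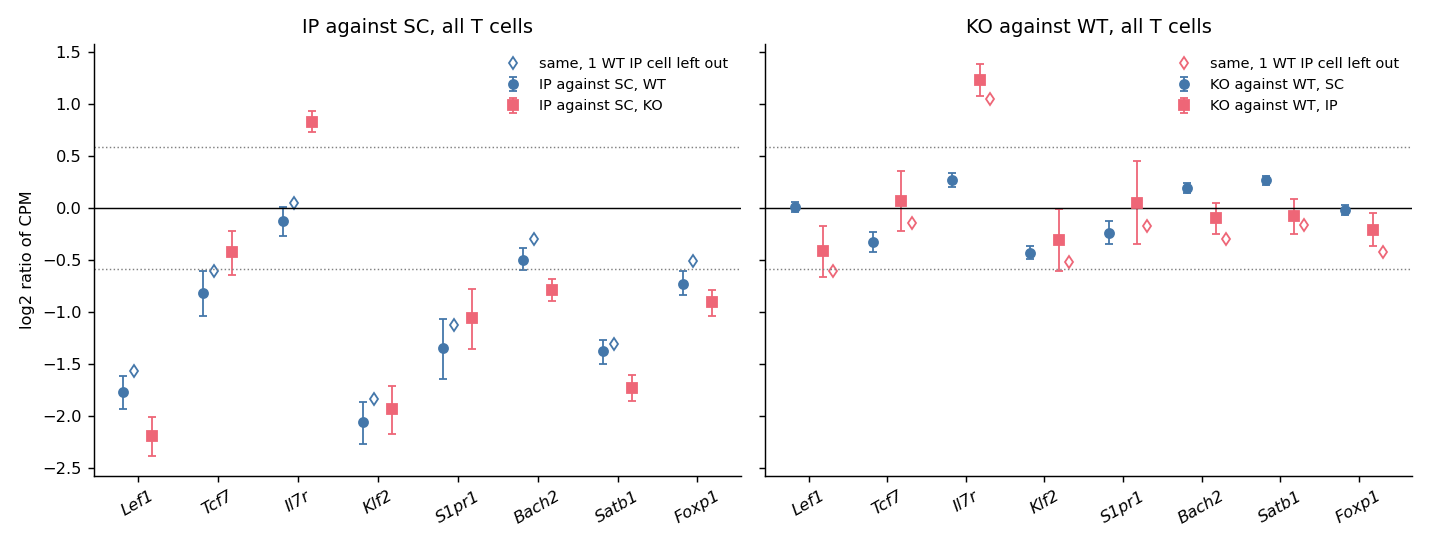
Log2 ratio of CPM in all T cells for the 8 genes, IP over SC on the left and KO over WT on the right; bars are exact 95% conditional binomial intervals for counting error, diamonds leave out the large WT IP cell and dotted lines mark 1.5-fold. Lef1, Klf2, S1pr1 and Satb1 lie below -1 in both depot comparisons, and Il7r at 1.23 is the member farthest from 0 on the right.

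The depot gap was present inside the coreceptor classes. In CD4 cells, Lef1 was 967 CPM in SC of WT, 1029 in SC of KO, 249 in IP of WT and 196 in IP of KO. In CD8 cells it was 1077, 1017, 517 and 316 CPM, and in cells with neither coreceptor 769, 758, 139 and 166 CPM. The large cell belongs to that last class, and with it left out Lef1 in WT IP was 185 CPM there, above KO IP in place of below it, though the intervals overlapped either way. The order of the depots was thus the same in all 3 classes, with the smallest gap in WT CD8 cells, at a log2 ratio of -1.05. In those WT CD8 cells Bach2 and Foxp1 did not differ between depots beyond counting error, with ratios of 0.08 (-0.08 to 0.23) and 0.07 (-0.09 to 0.23), whereas in KO CD8 cells they were -0.89 and -0.75. Only 26 CD8 and 29 CD4 cells carried the KO IP values. The largest T cell of KO IP held 107406 of the 297493 UMIs of those CD8 cells.

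Klf2 was lower in IP in each class too. In CD4 cells it was 746 CPM in SC of WT, 551 in SC of KO, 237 in IP of WT and 231 in IP of KO. In cells with neither coreceptor it was 792, 434, 116 and 80.1 CPM, or 163 CPM in IP of WT without the large cell. The log2 ratio of KO over WT in IP was -0.53 (-1.12 to 0.04) in that class with the cell and -1.02 (-1.61 to -0.45) without it. Tcf7 had no depot gap beyond counting error in CD4 cells of KO, with 312 CPM in IP and 274 in SC, a ratio of 0.19 (-0.17 to 0.52), nor in CD8 cells of WT, at -0.24 (-0.58 to 0.08).

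The 8 genes were also counted per cell. After each T cell was thinned to 3000 UMIs, which left out 13, 19, 1 and 3 shallower cells, a T cell had on average 5.41 of the 8 genes in WT SC (SD 1.90 over cells), 5.47 in KO SC (SD 1.76), 3.73 in WT IP (SD 1.92) and 3.70 in KO IP (SD 1.65). At least 5 genes were found in 73.8% and 74.7% of SC cells and in 33.9% and 30.5% of IP cells, WT before KO. Cells with none or a single gene made up 11.3% of WT IP, 5.93% of KO IP and at most 5.16% of the SC libraries. Without thinning the means were 6.77, 6.60, 4.90 and 4.93.

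The share of T cells with a Lef1 UMI after thinning was 73.8% in SC of WT, 73.4% in SC of KO, 41.1% in IP of WT and 28.0% in IP of KO. Unthinned shares were 82.6%, 82.1%, 52.0% and 42.1%. Stromal cells, which should lack Lef1 of T cells and whose median depth was 5684 to 23781 UMIs, had it in 0.952% or less after thinning, and 0 of 80 in WT SC allows a share of up to 3.75%. Klf2 was found in 67.7%, 64.9%, 33.1% and 31.4% of T cells after thinning, against 85.2%, 80.6%, 49.6% and 51.2% without. For Klf2 the stromal shares were 61.2%, 69.5%, 48.2% and 48.5%, so stromal cells are no background for it. Il7r was found in 57.8%, 67.1%, 51.6% and 72.9% of T cells after thinning, against 82.8%, 84.8%, 67.2% and 80.2% without, and in 0.490% or less of stromal cells.

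**Figure D3:**
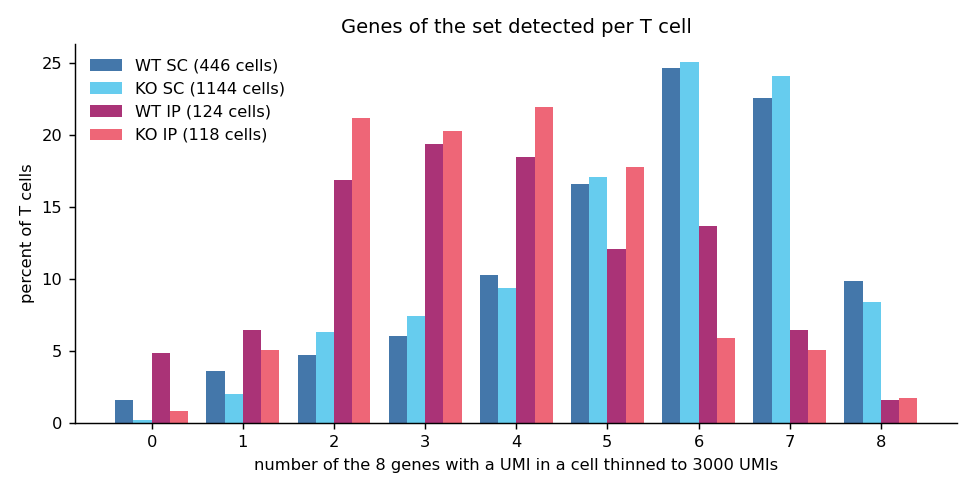
Percent of T cells (vertical axis) by the number of the 8 genes with a UMI in a cell thinned to 3000 UMIs, for 446 and 1144 cells of SC (WT, KO) and 124 and 118 of IP. The SC bars are highest at 6 genes in WT (24.7%) and in KO (25.1%), and the IP bars at 3 in WT (19.4%) and 4 in KO (22.0%).

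CCR7 (Ccr7), a chemokine receptor, takes T cells from the blood into lymph nodes, and a Ccr7 UMI was used to split the T cells. After thinning, 54.0% of SC T cells had it in WT (49.3 to 58.7) and 61.0% in KO (58.1 to 63.9). In IP, 16.9% of WT T cells had it (10.8 to 24.7) and 8 of 118 KO T cells, or 6.78% (2.97 to 12.9). Thinning is a random draw, and a second draw gave 10 of 118 there, or 8.47% (4.14 to 15.0). Unthinned shares were 72.8%, 76.7%, 23.2% and 11.6%, and in stromal cells the thinned share was 2.50% or less. T cells with a Ccr7 UMI were thus the majority in SC and the minority in IP.

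Lef1 was higher in the cells with a Ccr7 UMI in every library, at 1099 against 463 CPM in SC of WT, 1108 against 380 in SC of KO, 759 against 128 in IP of WT and 638 against 150 in IP of KO. Within cells with the receptor, the median depot ratio of the 8 genes was -0.17 in WT and 0.02 in KO, and without it -1.09 in WT and -0.40 in KO, against -1.08 and -0.99 over all T cells. With the large cell left out, the WT median without the receptor was -0.85 and the one over all WT T cells -0.87. The medians with the receptor thus lie closer to 0 in both genotypes, but in KO this rests on few cells. Of the 14 KO IP cells with the receptor, 5 held 79.3% of the Lef1 UMIs and 5 held 75.9% of those of Satb1. Leaving out the 5 highest cells of each library put Lef1 with the receptor at 246 CPM in KO IP and 1087 in KO SC. Satb1 was then at 705 and 1734 CPM, while Il7r was at 483 and 464. The medians of all genes were -0.11 (WT) and 0.25 (KO) with the receptor and 0.11 and 0.23 without. With the cells split after thinning, the median without the receptor was -1.07 in WT and -0.69 in KO. Lef1 and Klf2 kept ratios below 0 in cells with the receptor, at -0.53 and -1.01 in WT and -0.79 and -1.24 in KO, whereas Foxp1 was at 0.22 and -0.38. Depth differs between the strata, with medians of 8193 to 10098 UMIs with the receptor and 7064 to 8146 without, and KO IP had only 14 cells with it.

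Il7r ran the other way in SC. It was lower in cells with the receptor in WT SC (407 against 608 CPM) and in KO SC (476 against 822). In IP the strata did not differ beyond counting error, at 865 against 986 CPM in KO, a log2 ratio of -0.18 (-0.48 to 0.09), and at 458 against 399 CPM in WT, a ratio of 0.20 (-0.10 to 0.49). The WT IP cells without the receptor were at 472 CPM when the large cell was left out.

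**Figure D4:**
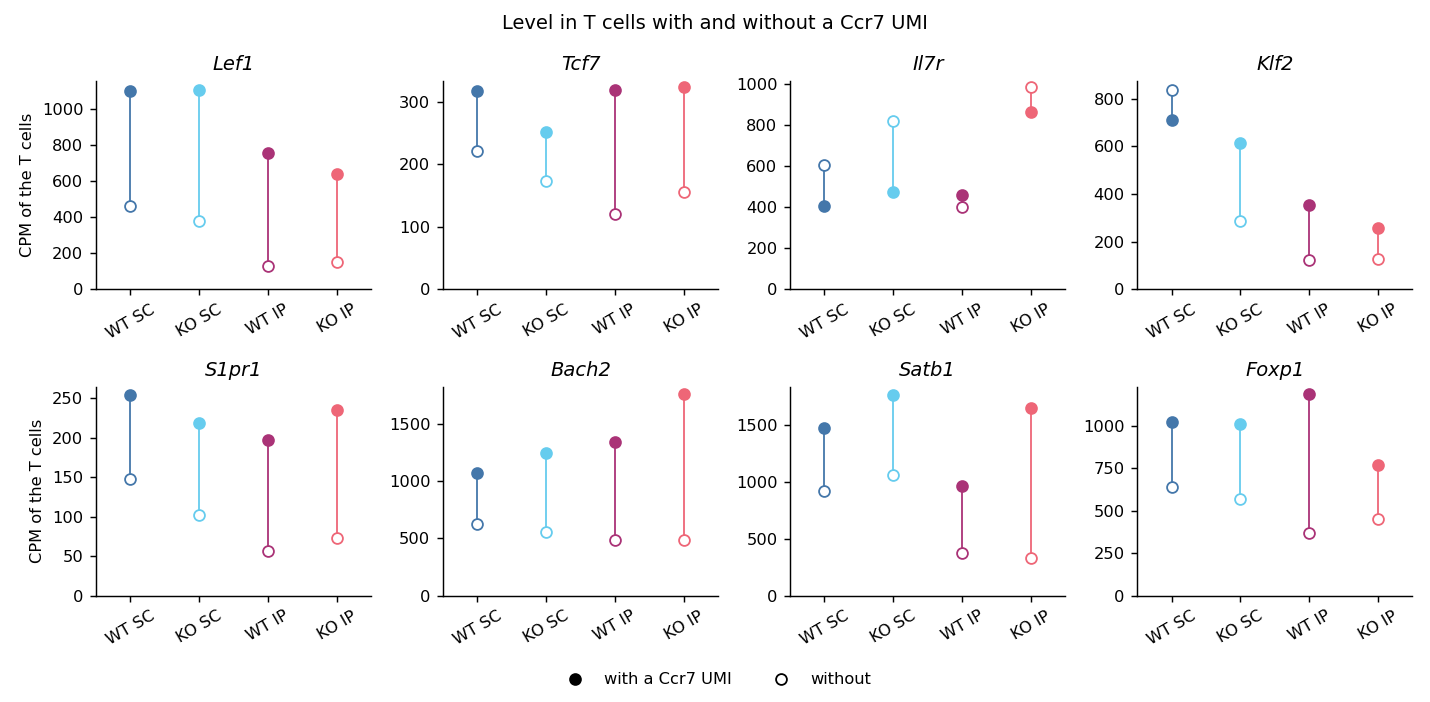
Level of each of the 8 genes (CPM, linear axis from 0) in T cells with a Ccr7 UMI (filled) and without (open) in the 4 libraries; a line joins both values of a library, and no interval is drawn. Lef1, Tcf7, S1pr1, Bach2, Satb1 and Foxp1 are higher with the receptor in all 4 libraries, Klf2 in all but WT SC (712 against 839 CPM), and Il7r is lower with it in all but WT IP.

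KO and WT were then compared within each depot, the contrast the study was built on. In SC, 0 of the 8 genes passed 1.5-fold, against 20.3% of the 11602 genes compared. Lef1 was at 0.01 (-0.04 to 0.06) and Foxp1 at -0.02 (-0.07 to 0.03), KO over WT on the log2 scale. Il7r and Satb1 were both at 0.27 and Bach2 at 0.19, while Klf2 was at -0.43 (-0.49 to -0.37), Tcf7 at -0.33 (-0.42 to -0.23) and S1pr1 at -0.24 (-0.35 to -0.13). The median of all genes was -0.15, and relative to it Lef1 and Foxp1 were slightly higher in KO and S1pr1 nearly level.

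The Klf2 gap in SC was seen in each class. It was -0.44 in CD4 cells, -0.32 in CD8 cells and -0.87 in cells with neither coreceptor, and in B cells Klf2 was 336 CPM in KO and 672 in WT. In T cells without a Ccr7 UMI it was -1.56, at 285 against 839 CPM, or -0.90 at 387 against 721 CPM with the cells split after thinning. In the first split 5 cells held 31.2% of the Klf2 UMIs of that WT stratum. Without the 5 highest cells of each library the levels there were 253 and 612 CPM. Klf2 belongs to the genes that dissociation can induce. Of 15 immediate early and stress genes, 3 (Hspa1a, Hspa1b and Jun) were lower in KO SC past 1.5-fold and 1 (Egr1) higher, against 15.3% and 5.03% of all genes, and their median log2 ratio was -0.01. The heat shock genes Hspa1a and Hspa1b were at 613 and 475 CPM in T cells of WT SC and at 27.9 and 30.7 CPM in KO SC, and Jun at 221 and 107 CPM, whereas Fos was at 366 CPM in both. In IP over SC, 4 of the 15 were higher and 2 lower in WT, against 18.6% and 11.1% of all genes. Without the large cell 5 were higher and 2 lower, against 15.8% and 13.9%. In KO 7 were higher and 0 lower, against 33.1% and 11.4%. The medians of the 15 were 0.26 in WT with the large cell kept and 0.45 in KO. The part of these differences in the Klf2 ratios of either contrast was not tested.

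In IP, Il7r was the only 1 of the 8 past 1.5-fold, against 26.3% of the 8413 genes compared. It was at 1.23 (1.08 to 1.39), or 1.05 (0.90 to 1.21) without the large WT cell. Lef1 was at -0.41 (-0.66 to -0.17), Klf2 at -0.31 (-0.61 to -0.01), Foxp1 at -0.21, Bach2 at -0.10, Satb1 at -0.08, S1pr1 at 0.05 and Tcf7 at 0.07. Without the large cell Lef1 was at -0.61 and also past 1.5-fold, Klf2 at -0.52 and Foxp1 at -0.42. Over all genes 17.7% were then higher and 8.88% lower past 1.5-fold. With doublets kept, Klf2 was at 0.00. For S1pr1, Tcf7, Satb1 and Bach2 the intervals include 0, with bounds between -0.35 and 0.45, both those of S1pr1. Without the large cell that of Bach2 no longer did, at -0.30 (-0.44 to -0.15).

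The higher Il7r of KO IP was not spread evenly over the classes. In cells with neither coreceptor it was 1345 CPM in KO and 410 in WT, or 549 in WT without the large cell. In CD4 cells it was 970 and 364 CPM, on 29 and 34 cells. In CD8 cells it was lower in KO, at 286 and 451 CPM, on 26 and 38 cells. The largest KO IP T cell is among those 26, with 107406 of their 297493 UMIs, and the CD8 ratio without it is not given. Cells with neither coreceptor made up 52.9% of the T cells in KO IP, 42.4% in WT IP and 28.5% and 28.9% in WT SC and KO SC.

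T cells with neither coreceptor can be gamma delta or innate-like T cells, which carry Trdc (the delta receptor constant gene) or Zbtb16 (the innate-like factor PLZF). In KO IP, all 64 T cells with neither coreceptor also had a UMI of Trac, Trbc1 or Trbc2, the alpha and beta constant genes. Trdc and Zbtb16 alone therefore do not settle the cell type. A UMI of Trdc or Zbtb16 was found in 37.3% of KO IP T cells after thinning (28.6 to 46.7), 20.2% of WT IP (13.5 to 28.3), 8.97% of WT SC and 126 of 1144 cells of KO SC. Unthinned shares were 39.7%, 21.6%, 12.4% and 12.7%. B cells, with median depths of 4909 to 7353 UMIs, had 0.677% or less after thinning. Stromal cells had 30.9% to 40.0% and cannot serve as background here.

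Il7r was higher in the T cells with such a UMI in each library. It was 785 against 401 CPM in SC of WT, 967 against 490 in SC of KO, 471 against 381 in IP of WT and 1567 against 577 in IP of KO. Without the large cell, which has such a UMI, the level in WT IP was 743 CPM. The log2 ratio of KO over WT in IP was 1.73 with such a UMI, or 1.07 without that cell, and 0.60 (0.38 to 0.82) in the remaining cells. Il7r was thus higher in KO IP on both sides of the split, and the cells with the higher level were also a larger share of it. In KO IP the 38 cells with a Trdc UMI held 54.1% of all Il7r UMIs of the T cells.

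Lef1 and Klf2 were read on the same split. Without a Trdc or Zbtb16 UMI, Lef1 was 1024 and 1061 CPM in SC and 375 and 267 in IP (WT, KO), and Klf2 was 758 and 598 in SC and 225 and 203 in IP. The depot gap was thus present in cells without these markers, with log2 ratios of -1.45 (WT) and -1.99 (KO) for Lef1 and -1.75 and -1.55 for Klf2. With such a UMI, Klf2 was 631 CPM in SC of WT (571 to 696) and 180 in SC of KO (157 to 207), and Lef1 505 (451 to 564) and 213 (187 to 241), so both were lower in KO there, at -1.81 and -1.25 on the log2 scale. Of the 57 such cells of WT SC, 5 held 47.4% of the Klf2 and 54.5% of the Lef1 UMIs. Without the 5 highest cells of each library Klf2 was 389 and 117 CPM and Lef1 277 and 135 CPM, WT before KO.

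**Figure D5:**
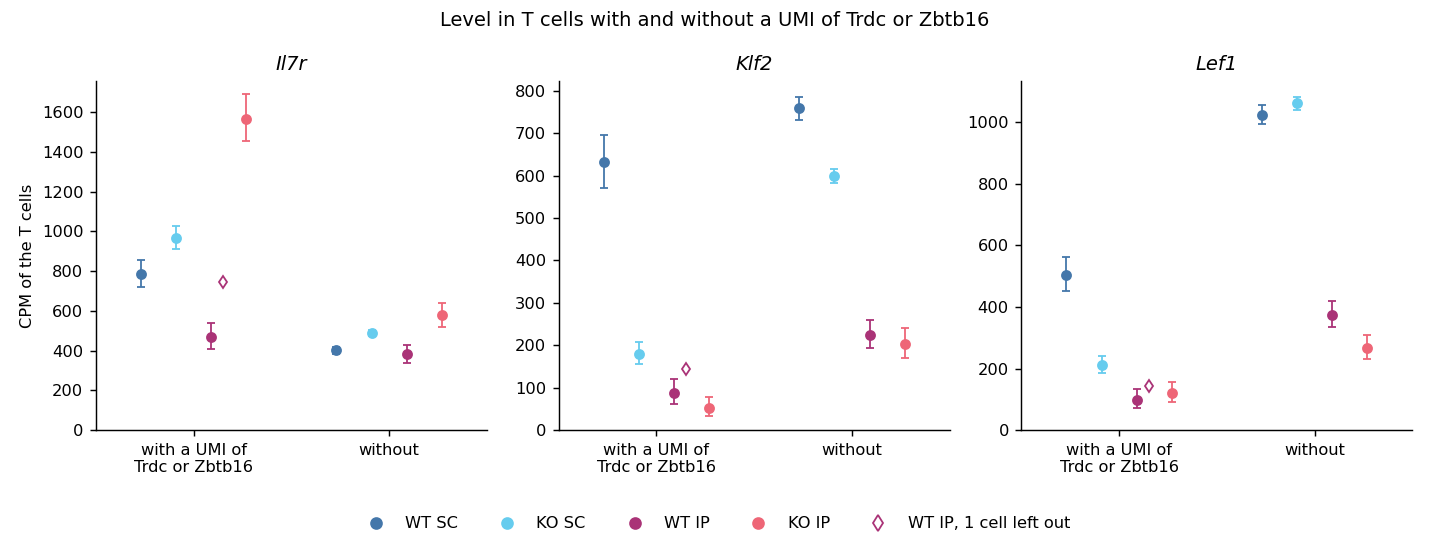
Level (CPM, linear axis from 0) of Il7r, Klf2 and Lef1 in T cells with and without a Trdc or Zbtb16 UMI in the 4 libraries; bars are exact 95% Poisson intervals and diamonds leave out the large WT IP cell. Il7r is highest in KO IP on both sides, at 1567 and 577 CPM, and Lef1 is higher without such a UMI in every library.

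In the related pathways a smaller part of each list was lower in IP than among the members. Of the lymph node homing list, 1 of 7 was lower in IP past 1.5-fold in WT (Ccr7) and 3 of 7 in KO (Ccr7, Ccr9 and Klf3), against 11.1% and 11.4% of all genes. Itgal was higher in both, Cxcr4 in WT and Itgb7 in KO, so 2 of 7 in each, against 18.6% and 33.1% of all genes. Ccr7 was 129 CPM in WT IP and 426 in WT SC, and 39.3 in KO IP and 521 in KO SC. It was also lower in KO IP than in WT IP, with a log2 ratio of -1.70. Itgb7, an integrin chain used for entry into gut and other tissue, was 276 CPM in KO IP and 160 in WT IP.

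Of 23 quiescence regulators, 1 was lower in IP past 1.5-fold in each genotype, Txnip in WT and Klf3 in KO. In WT 3 were higher (Klf4, Runx1 and Zfp36l2), and in KO 6, with Runx1 and Zfp36l2 among them. Over all genes 11.1% (WT) and 11.4% (KO) were lower and 18.6% and 33.1% higher, so none of these counts, with the large cell kept, was above its background. With that cell left out, 4 of the 23 were higher in WT, Dusp2 among them, and 0 lower. Over all genes 15.8% were then higher and 13.9% lower. Txnip, which restrains glucose uptake, was 190 CPM in WT IP and 298 in WT SC, or 221 in WT IP without the large cell, where it was inside 1.5-fold. Foxo1, the forkhead factor that sustains Klf2 and Il7r, was 153 CPM in WT IP and 212 in WT SC, and 152 in KO IP and 186 in KO SC. Klf3, a relative of Klf2, was 140 and 190 CPM in WT and 141 and 216 in KO, while Klf4 was higher in IP, at 144 and 79.9 CPM in WT and 174 and 122 in KO. Klf2 thus had a wider depot gap than either relative by value, and Klf4 the opposite direction.

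Around Il7r, the common gamma chain gene Il2rg was 274 CPM in KO IP and 205 in WT IP. Bcl2, a survival gene downstream of the receptor, was 447 CPM in KO IP, 280 in WT IP, 175 in KO SC and 215 in WT SC. It was the only gene past 1.5-fold among the 9 compared genes of the IL-7 receptor axis in KO over WT of IP, where 14.9% of all genes were higher and 11.4% lower. Leaving out the large cell put Bcl2 at 321 CPM in WT IP, and 0 of the 9 were then past 1.5-fold. Cish, induced by STAT5, was 88.5 and 67.1 CPM in KO IP and WT IP, and 37.4 and 30.2 in KO SC and WT SC, higher in both IP libraries. Of 6 compared genes of the S1P axis, the kinase gene Sphk2 was lower in KO IP past 1.5-fold, at 5.36 against 11.3 CPM, and 0 were higher. Among 10 compared partners of TCF and LEF, Myb and Tcf7l2 were lower and Gata3 and Tle1 higher in KO IP past 1.5-fold, and Gata3 was inside it without the large cell. The same shares over all genes apply to the S1P and the TCF and LEF lists. Myb was 20.6 CPM in KO IP, 100 in WT IP, 108 in KO SC and 93.5 in WT SC, so KO IP stood apart.

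Most of the activation, memory and effector list ran opposite to the members. In IP over SC, 20 of its 32 genes were higher past 1.5-fold and 5 lower in WT, against 18.6% and 11.1% of all genes. In KO 24 were higher and 3 lower, against 33.1% and 11.4% of all genes. Cd44 was 269 against 127 CPM in WT and 371 against 119 in KO, S100a4 was 948 against 504 and 1560 against 296, and Ccl5 was 3329 against 620 and 2624 against 592. In KO over WT of IP, 16 of 31 compared genes were higher and 3 lower, against 14.9% and 11.4% of all genes. Leaving out the large cell gave 10 higher and 5 lower, against 17.7% and 8.88% of all genes. The 5 lower were Eomes, Ifng, Ikzf2, Nkg7 and Tbx21. Among the higher, Ccr2 was 237 CPM in KO IP and 62.2 in WT IP with the cell kept, and Il2ra 135 and 34.7. Without the cell WT IP was at 72.7 CPM for Ccr2 and 31.2 for Il2ra.

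B and NK cells shared only some of the genes. In WT SC, B cells were lower than T cells by log2 ratios of -5.10 for Lef1, -5.11 for Tcf7 and -6.12 for Il7r. They were higher for Satb1 at 0.40, Bach2 at 0.89 and Foxp1 at 1.30, and lower for S1pr1 at -1.24 and, by little, for Klf2 at -0.14. In KO SC the Klf2 ratio was -0.71, and in IP the S1pr1 ratios of -0.16 (-1.21 to 0.65) in WT and -0.10 (-0.92 to 0.58) in KO were within counting error. The depot gap of Klf2 was present in B cells as well, at 672 CPM in WT SC and 155 in WT IP, and at 336 and 161 in KO, on 22 and 25 IP cells. Bach2, Satb1 and Foxp1 were also lower in IP B cells beyond counting error, at log2 ratios of -0.68, -0.52 and -0.34 in WT. In KO these were -0.17, -0.94 and -0.29, whereas S1pr1 did not differ between depots in B cells of either genotype. In the 59 NK cells of WT IP, Lef1 was 52.5 CPM and Il7r 33.3, below the T cells of that library, whereas Klf2 was 242 CPM, a log2 ratio of 0.45 (0.13 to 0.76) over them. With the large T cell left out that ratio was 0.23 (-0.09 to 0.55), and in WT SC, on 25 NK cells, it was -1.63 (-2.04 to -1.27).

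The genes whose log2 levels followed the mean of the 8 most closely over 13 units, each a lymphocyte class of a library, were Dusp10 (Pearson's r 0.964), Rgs10 (0.959), Gm14085 (0.954), Numb (0.949) and Ift80 (0.941), out of 6948 eligible genes. Against the mean of the other members, Lef1 had an r of 0.948, S1pr1 0.790, Tcf7 0.614, Il7r 0.512, Klf2 0.424, Satb1 0.257, Bach2 -0.007 and Foxp1 -0.109. The units include B and NK cells, share libraries and depth and are not independent, so these values describe only. The 8 genes did not form a single pattern across lymphocytes, since Bach2, Satb1 and Foxp1 were high in B cells.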

How the data were processed

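Each deposited table held unnormalised UMI counts of genes in cell barcodes, produced by the authors with Cell Ranger (version 7.0.0 per the file headers) from droplet 3' libraries. The submitters' processing notes name STAR 2.6 and mm10. The use of intronic reads, which raise long genes such as Foxp1 and Bach2, and how cell barcodes were called are not given in the sources used here. Cells needed 200 or more genes and no more than 25% of UMIs from mitochondrial genes. Scrublet in scanpy 1.11.5, with an expected rate of 5%, called 23 doublets (0.556%), which were removed.

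Cells were classed by marker UMIs. B cells had at least 2 UMIs of their markers, NK cells 2 of Ncr1, Klrb1c and Klre1, stromal cells 10 of Col1a1, Col3a1 and Dcn, and macrophages 3 of theirs. Classes needed at least 20 cells. Counts were summed per class and library, scaled to CPM and compared as log2 ratios after adding 0.5 UMI, for genes with at least 20 UMIs over both libraries. Levels carry exact Poisson, shares exact Clopper-Pearson and ratios exact conditional binomial 95% intervals, and a count of 0 was taken to allow 3 counts. T cell UMIs totalled 1118574 to 9662009 per library. The ratio script was tested on simulated counts. With 1 library per group no test was possible.

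The members, the lists and the rule for naming genes (all 8 members, list genes with their values, and the 5 genes of most similar profile with at least 200 T cell UMIs) were chosen with earlier results of these data known. The immediate early list, the Ccr7 and the Trdc or Zbtb16 splits, the values without the 5 highest cells, and the alternatives leaving out shared barcodes or T cells with NK markers or asking for a T cell receptor UMI were added after seeing the data. Coordinates came from GENCODE M21 (GRCm38). Scripts ran in Python 3.11.15 with anndata 0.12.19, numpy 2.4.6, scipy 1.17.1 and matplotlib 3.10.9.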

Additional observations from a re-analysis of the deposited data

How the results depend on the processing

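Of 112 log2 ratios of members recomputed per comparison, 98 (KO over WT in SC), 92 (KO over WT in IP), 87 (IP over SC in WT) and 102 (IP over SC in KO) moved by less than counting error. The shares were less stable, since of 96 recomputed percents of T cells 15 were counted as the same and 81 as moved. Of 47 summed CPM values 39 were counted as the same and 8 as moved. The sign of a called ratio turned once, for Klf2 in KO over WT of IP, which was 0.00 with doublets kept. Scaling by the median of ratios gave member medians of 0.14 for KO over WT in SC and -1.29 for IP over SC in KO. Weighting every cell equally gave -0.08 for KO over WT in SC. Without T cells with UMIs of B cell, stromal or macrophage markers the medians were -0.32 for KO over WT in IP, with 2 members past 1.5-fold, and -0.79 for IP over SC in WT. Without T cells with NK marker UMIs they were -0.37, with 3 members past it, and -0.69. The shares of all genes past 1.5-fold under these filters are not given. Without barcodes found in another library 2 members passed in KO over WT of IP, 1 higher and 1 lower, against 17.7% and 8.88% of all genes. The activation list then had 10 genes higher in place of 16, and 5 lower in place of 3. The mean number of members per T cell was 4.81 in SC of WT and in SC of KO, 2.95 in IP of WT and 3.07 in IP of KO after thinning to 2000 UMIs, and 6.19, 6.16, 4.51 and 4.50 after thinning to 5000, where fewer or more UMIs are read by construction. With strata set after thinning, the medians for KO over WT in SC were -0.07 in cells with a Ccr7 UMI and -0.05 in cells without. Apart from the thinning depths, the cause was not tested. No paired analysis was possible because the labels carry no replicate numbers and each group is 1 library. Values of IP rest on few cells, 26 to 64 in the T cell classes, 22 and 25 B cells and 14 KO cells with a Ccr7 UMI.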

Other observations

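Klf2 was also a gene of other cell types. In stromal cells it was 844 CPM in SC of WT, 781 in SC of KO, 489 in IP of WT and 429 in IP of KO, lower in IP as in T cells, with log2 ratios of IP over SC of -0.79 in WT and -0.87 in KO. Bach2 and Foxp1 were lower in IP stromal cells too, at -1.06 and -0.48 in WT and at -1.11 and -0.34 in KO. In macrophages of IP, Klf2 was 558 CPM in KO and 183 in WT, a ratio of 1.60 (1.42 to 1.80), opposite in sign to the ratio in T cells. Foxp1 in the same macrophages was 438 CPM in KO and 768 in WT, a ratio of -0.81 (-0.95 to -0.67). They numbered 47 and 104 cells.

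Il17a, the type 17 cytokine, was 158 CPM in SC T cells of KO and 13.2 in those of WT, against 100 and 90.5 in IP, or 106 in WT IP without its largest T cell. Areg, a tissue repair ligand, was 92.2 CPM against 27.8 in SC and 56.3 against 12.9 in IP, KO before WT, and so higher in KO in both depots. Both genes were picked from the activation list after their values were seen. A UMI of the GFP features of the reporter was found in 67.5% of WT and 40.4% of KO T cells in SC and in 72.8% of WT and 36.4% of KO T cells in IP, without thinning. Stromal cells had it in 43.8%, 38.0%, 33.2% and 18.7% in the same order, so the share in T cells is no count of recombined cells.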
